A study of Homo sapiens with 12 samples.

Results

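The PTPN14-2 siRNA, 1 of the 2 siRNAs aimed at PTPN14 in this series, was compared with the control siRNA in 3 established human kidney lines. The comparison used 3 PTPN14-2 libraries and 3 control libraries, chosen by their titles and matched by cell line, of 12 libraries in all. PolyA RNA was taken 48 h after transfection of an siRNA at 25 nM with a lipid reagent, and the groups were PTPN14-2, PTPN14-1, LATS and a non-targeting control, each with 1 library from A704, 1 from HK2 and 1 from CAKI-1. A704 and CAKI-1 are labelled as cancer lines and HK2, a proximal tubule line, is the normal epithelial line. No sequence of any siRNA was used here. Titles and descriptions give the PTPN14 siRNAs opposite numbers in every line, and the number in the title is the one used. It was tested, in 12276 of 20979 table entries, which genes were higher or lower with PTPN14-2.

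PTPN14 is a non-receptor tyrosine phosphatase with an N-terminal FERM domain, and it binds the coactivator YAP and the scaffold KIBRA. In the Hippo pathway the MST kinases and their adaptors activate LATS kinases, which phosphorylate YAP and TAZ and keep them out of the nucleus. There YAP and TAZ act with TEAD factors on genes such as CYR61 and CTGF. Loss of PTPN14 is known as a way to raise YAP activity in several epithelial cell types, and PTPN14 is itself a YAP target gene.

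Levels are FPKM as deposited, and changes are differences in log2(FPKM + 1), PTPN14-2 minus control, with the standard error of a limma fit over all 12 libraries that had cell line as a block and reagent as the tested term. The adjusted p is limma's, corrected by Benjamini-Hochberg over the 12276 genes, and a gene is said to rise or fall where it is under 0.05. Estimated depth was 18.9, 20.7 and 17.6 M reads in the A704, HK2 and CAKI-1 libraries with PTPN14-2, against 19.6, 19.1 and 22.9 M reads with control. The RNA integrity number was 10 in these libraries apart from the A704 control, at 9.6. The labels do not say whether the lines were cultured separately for each library of a reagent, so p-values reflect only how far these libraries scatter. Of the kidney epithelial markers, PAX8, KRT8 and KRT18 were above FPKM 1 in all 6 libraries, PAX2 and CDH1 were so in A704 alone, and EPCAM in HK2 alone. Markers of other cell types were mostly near 0. CDH5 and FLT1 were at 0 in all 6 libraries, and 1 of 13 endothelial, 3 of 16 immune, 6 of 13 fibroblast and 4 of 9 podocyte markers passed FPKM 1 in any of them. CD68 was at 18.4 to 145 FPKM over the 6 libraries. LUM in HK2 was at 74.4 FPKM with PTPN14-2 and 46.6 FPKM with control. Only 1 endothelial, 3 immune, 5 fibroblast and 4 podocyte markers were expressed enough to be tested, and none of these rose or fell.

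The targeted gene was lower with PTPN14-2 in each line. PTPN14 (chr1:214348696-214552449, GRCh38) stood at 7.14, 19.5 and 5.78 FPKM with PTPN14-2 in A704, HK2 and CAKI-1, against 19.1, 51.8 and 18.5 FPKM with control. HK2 had the highest level under both reagents, and the HK2 library with PTPN14-2 overlapped the A704 and CAKI-1 controls in level, so the comparison is within lines. PTPN14-2 left 37.3, 37.5 and 31.2% of the control level in A704, HK2 and CAKI-1, and the fall was 1.40 on the log2 scale (-1.40 ± 0.11, limma adjusted p = 0.000121). In bulk RNA, fewer cells that express a gene and less RNA in each cell cannot be told apart, here and below. The genes of YAP, TAZ and the LATS kinases were not called. YAP1 had 31.6, 24.3 and 19.2 FPKM with PTPN14-2 and 36.1, 27.98 and 18.6 FPKM with control, a difference of -0.11 ± 0.08 (limma adjusted p = 0.534). WWTR1, which encodes TAZ, had 82.6, 171 and 79.1 FPKM with PTPN14-2 and 76.3, 144 and 60.4 FPKM with control, higher in each line at an adjusted p of 0.295. LATS1 (0.10 ± 0.11) and LATS2 (0.07 ± 0.09) differed by no more than their standard errors.

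PTPN14-2 lowered more genes than it raised. Of 12276 genes, 166 were called (1.35%), 55 of them higher (0.448%) and 111 lower (0.904%), and all 166 had the same sign in the 3 lines, as 42.4% of all tested genes did. The median called fall was -0.54 and the median called rise 0.47. Falls also went further: 7 genes fell by at least 1 log2 unit and 32 by at least 0.7, whereas 1 rise, that of TSPAN2, reached 0.7. At an unadjusted p under 0.05 the split was closer to even, 871 higher and 966 lower, and the median change over all tested genes was -0.00. The count for PTPN14-2 against control fell to 34 without the CAKI-1 control, 43 without the HK2 control, 92 without the A704 control, and 44, 66 and 84 without the CAKI-1, HK2 and A704 PTPN14-2 library, and was 254 without the A704 PTPN14-1 library. It was 60 with no filter on low values and 526 with the 6 PTPN14-2 and control libraries alone.

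**Figure D1:**
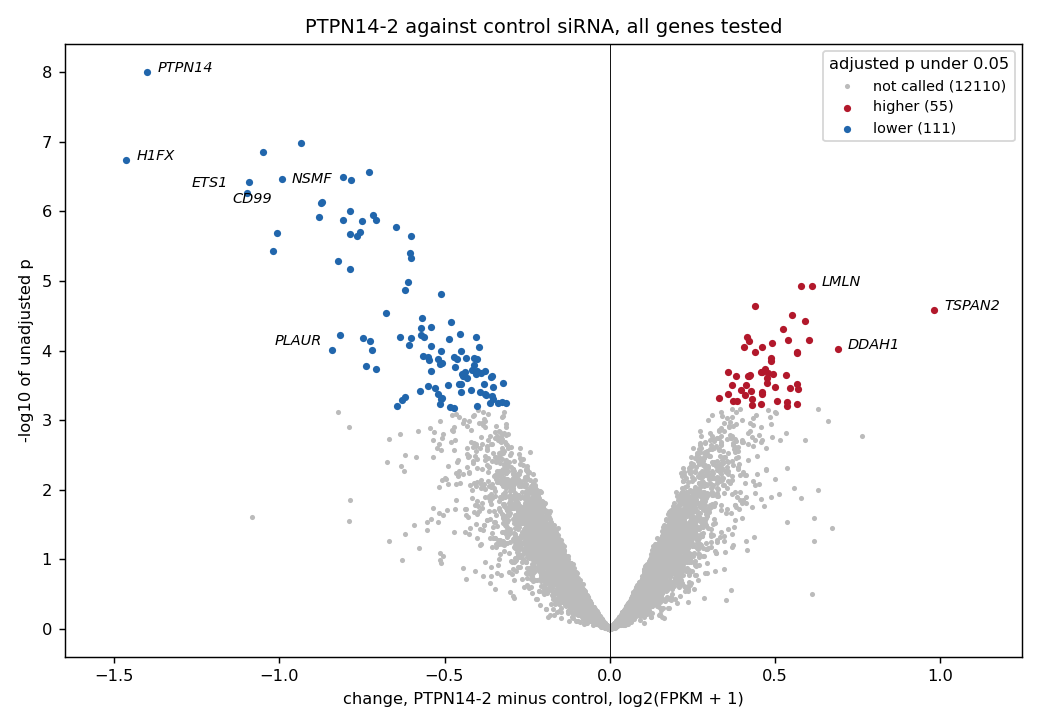
Change of each of 12276 genes with PTPN14-2 against control siRNA (log2(FPKM + 1), horizontal) and -log10 of its unadjusted limma p (vertical); red points are the 55 genes called higher, blue points the 111 called lower and grey points the rest. PTPN14 and H1FX lie farthest to the left and TSPAN2 farthest to the right among the called genes.

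The largest fall belonged to a linker histone. H1FX, which encodes histone H1X, a linker histone that binds DNA between nucleosomes, had 2.17, 2.90 and 4.29 FPKM with PTPN14-2 in A704, HK2 and CAKI-1, against 5.25, 13.3 and 14.4 FPKM with control. Every PTPN14-2 value was below every control value, and the change was -1.46 ± 0.14 (limma adjusted p = 0.000519). The antisense gene H1FX-AS1 covers 22.9% of its exonic bases on the opposite strand, and as the strand setting of the counting is not given in the sources used here, reads of the pair may be mixed. Among the 21 histone genes tested H1FX was the 1 that was called, beside 1.35% over all genes, and the list's median change was 0.01.

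ETS1, a transcription factor with an ETS DNA-binding domain that acts downstream of RAS and ERK signalling, had 16.1, 19.1 and 10.3 FPKM with PTPN14-2, against 30.3, 41.9 and 27.4 FPKM with control (-1.10 ± 0.12, limma adjusted p = 0.000661). Its PTPN14-2 and control values did not overlap. CD99, a cell-surface glycoprotein of leukocyte adhesion that is also abundant on Ewing sarcoma cells, had 11.7, 12.2 and 19.1 FPKM with PTPN14-2, against 21.2, 29.4 and 47.5 FPKM with control (-1.09 ± 0.12, adjusted p = 0.000519). Again each PTPN14-2 library was below all controls. ACLY, the cytosolic enzyme that cleaves citrate to acetyl-CoA for lipid synthesis and histone acetylation, had 46.0, 59.1 and 67.5 FPKM with PTPN14-2, against 75.3, 127 and 123 FPKM with control (-0.88 ± 0.10, adjusted p = 0.00095). SLC2A3, the high-affinity glucose transporter GLUT3, had 39.7, 11.9 and 4.21 FPKM with PTPN14-2, against 61.0, 19.98 and 8.31 FPKM with control (-0.72 ± 0.08, adjusted p = 0.00095). SLC2A3 differed more between lines than between reagents, and its fall is seen within each line.

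**Figure D2:**
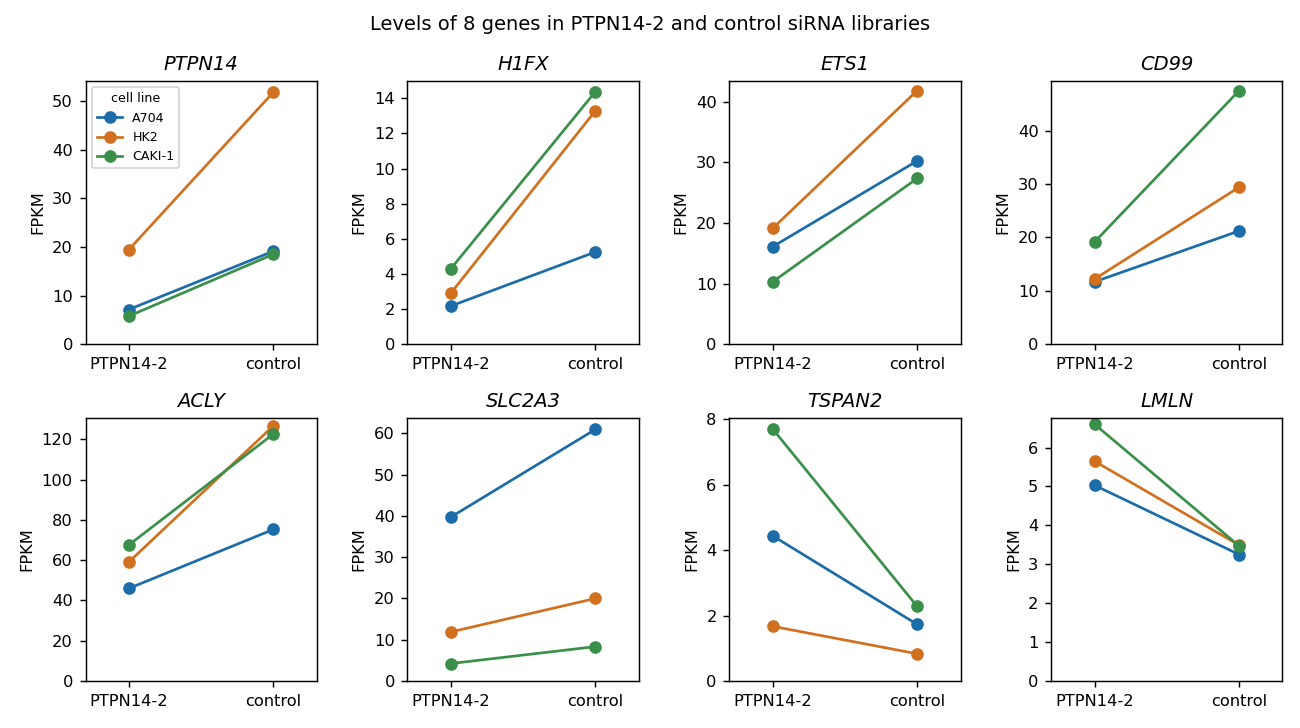
FPKM of 8 genes in PTPN14-2 (left) and control (right) libraries, with a line joining the 2 libraries of each cell line; axes start at 0. The first 6 genes, PTPN14 to SLC2A3, are lower with PTPN14-2 in each line, while TSPAN2 and LMLN are higher in each.

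Of the other leading falls, TMEM164 (-1.05 ± 0.10), FAM174A (-1.02 ± 0.13) and SPRYD3 (-1.01 ± 0.12) fell by more than 1 log2 unit. NSMF, a synapse-to-nucleus messenger in neurons, fell by 0.99 on the log2 scale. GOLT1B, a protein of Golgi vesicle transport, fell to 18.1, 12.8 and 22.1 FPKM with PTPN14-2, against 31.6, 27.7 and 44.4 FPKM with control (-0.93 ± 0.09). Its PTPN14-2 and control values did not overlap. STX6, a SNARE of the trans-Golgi and endosomes, changed by -0.78 ± 0.08, TMEM87B of the Golgi by -0.73 ± 0.07, and AP3M1, a subunit of the AP-3 coat that sorts cargo to lysosomes, by -0.71 ± 0.08. GOLT1B and AP3M1 were the 2 called members among 48 genes tested of the list of vesicle coats and Golgi traffic, beside 0.904% called lower over all genes. The list had 0 called rises and a median change of -0.01. ANO6, a calcium-activated phospholipid scramblase, changed by -0.82 ± 0.11, and CLSTN1, a kinesin cargo adaptor, by -0.76 ± 0.09. MORF4L1, a subunit of the NuA4 acetyltransferase complex, had 57.1, 37.8 and 97.2 FPKM with PTPN14-2, against 94.4, 74.8 and 186 FPKM with control (-0.87 ± 0.10). The CAKI-1 library with PTPN14-2 was above the A704 and HK2 controls, so that its fall too is one within lines. CARM1, an arginine methyltransferase, changed by -0.79 ± 0.09, WDR5, a core subunit of the MLL methyltransferases, by -0.76 ± 0.09, GTF2E2, a subunit of the general factor TFIIE, by -0.75 ± 0.09, and TFAP4, a helix-loop-helix factor, by -0.88 ± 0.10. HPRT1, the purine salvage enzyme, had 13.0, 48.8 and 31.1 FPKM with PTPN14-2, against 23.0, 89.9 and 54.1 FPKM with control, and its change of -0.81 ± 0.08 was nearly the same in each line. MORF4L1 has 6, and HPRT1 and SLC2A3 have 3 annotated pseudogene copies each, so their reads could be split. AP3M1 shares 18.8% of its exonic bases with VCL and CARM1 19.9% with YIPF2 on the opposite strand.

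Each fall named so far kept an adjusted p under 0.05 in limma fits that left out any 1 of the 12 libraries. Over the 166 called genes this held for 31, of which 30 fell and 1, LMLN, rose. It did not hold for some of the large falls. PLAUR, the urokinase receptor, had 2.98, 36.7 and 3.97 FPKM with PTPN14-2, against 5.59, 52.5 and 10.5 FPKM with control (-0.82 ± 0.14, adjusted p = 0.0152), and its call ended without the A704 or CAKI-1 PTPN14-2 library or the HK2 or CAKI-1 control (highest adjusted p 0.0935). TMEM158, a membrane protein known as induced by RAS, changed by -0.84 ± 0.15, and its call ended without either A704 library, either HK2 library or the CAKI-1 control (highest adjusted p 0.109). SLCO4A1, an organic anion transporter, changed by -0.74 ± 0.14 and LPXN, a focal adhesion adaptor, by -0.75 ± 0.13. For both, the call ended without any of the 3 PTPN14-2 libraries or the HK2 or CAKI-1 control, with a highest adjusted p of 0.132 for SLCO4A1 and 0.109 for LPXN.

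The largest rise was that of a tetraspanin. TSPAN2, a membrane organiser first studied in myelinating glia, had 4.44, 1.67 and 7.71 FPKM with PTPN14-2 in A704, HK2 and CAKI-1, against 1.73, 0.83 and 2.28 FPKM with control. It was higher in each line, by 0.99, 0.54 and 1.41, while the HK2 library with PTPN14-2 lay below the A704 and CAKI-1 controls. The rise was 0.98 ± 0.15 (limma adjusted p = 0.00877). Among fits that left out 1 library, it missed the threshold only without the CAKI-1 PTPN14-2 library, at an adjusted p of 0.0635. Over all 26 alternative settings the call ended in 5. TSPAN2 was the 1 called gene of 20 tetraspanins tested, beside 0.448% called higher over all genes, and the median change of the tetraspanins was 0.03. DDAH1, which breaks down the nitric oxide synthase inhibitor asymmetric dimethylarginine, had 34.5, 53.1 and 9.25 FPKM with PTPN14-2, against 24.1, 30.7 and 4.89 FPKM with control (0.69 ± 0.12, adjusted p = 0.018). Its call, and those of SLC4A4 and ITGB8, ended without any of the 3 PTPN14-2 libraries or the HK2 or CAKI-1 control, with highest adjusted p values of 0.118, 0.087 and 0.118.

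Further rises were smaller, and the list counts given with them stand beside 0.448% called higher over all genes. SLC4A4, the sodium bicarbonate cotransporter of the proximal tubule, had 51.3, 4.94 and 13.8 FPKM with PTPN14-2, against 36.6, 2.98 and 8.03 FPKM with control (0.59 ± 0.10). ITGB8, the integrin beta subunit that activates latent TGF-beta, had 45.3, 13.0 and 27.1 FPKM with PTPN14-2, against 32.7, 7.47 and 18.6 FPKM with control (0.57 ± 0.10), and was the 1 called gene of 19 integrin subunits, whose median was 0.09. Both were higher with PTPN14-2 in each line, and under both reagents A704 was the highest line and HK2 the lowest. KRT80, a type II keratin, rose by 0.60 ± 0.10, while 13 of the 14 tested genes of its list of keratins and mesenchymal filaments had estimates below 0, with a median of -0.14. PRSS23, a serine protease, rose by 0.57 ± 0.10 and TMEM2, a cell-surface hyaluronidase, by 0.57 ± 0.12. These 3 genes, too, were higher in each line. The lysyl hydroxylase PLOD2 and the prolyl hydroxylase P3H2, both of which modify collagen, rose by 0.46 ± 0.10 and 0.46 ± 0.09, the 2 called members of 19 genes of collagen modification and crosslinking, whose median was 0.02. COL8A1, a short-chain collagen, rose by 0.48 ± 0.10 and was the 1 called gene of 37 of the extracellular matrix (median 0.02). Each of these calls ended without the CAKI-1 PTPN14-2 library, without the CAKI-1 control and without the HK2 control, and the highest adjusted p over all leave-one-out fits ran from 0.087 for SLC4A4 to 0.236 for PLOD2.

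**Figure D3:**
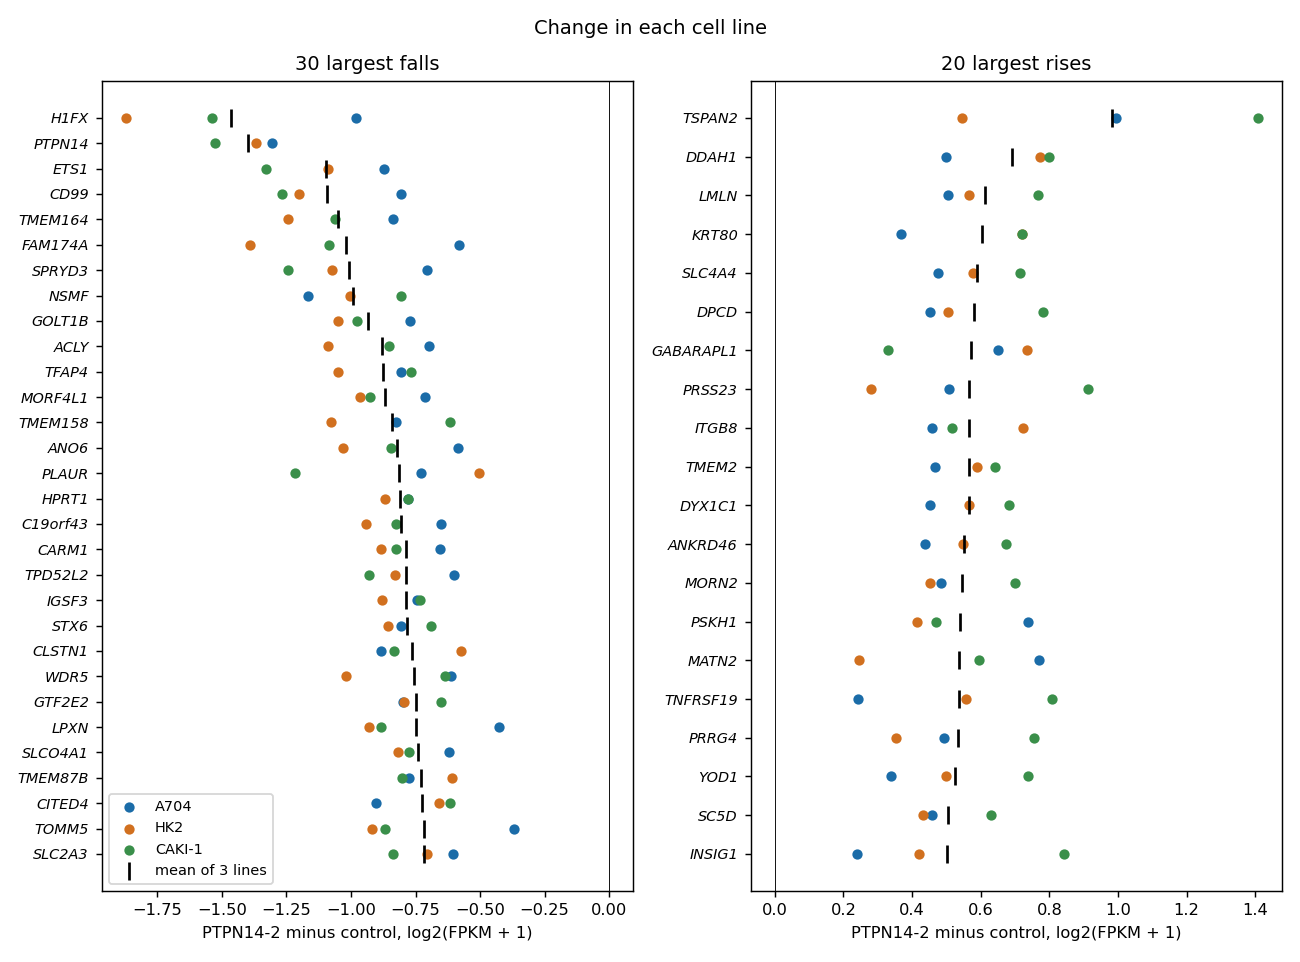
Change in each cell line (coloured points, PTPN14-2 minus control, log2(FPKM + 1)) and its mean over the 3 lines (black tick) for the 30 largest called falls and 20 largest called rises. All points of the falls lie below 0 and all points of the rises above 0, with H1FX, TSPAN2, FAM174A and PLAUR among the most spread.

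The size of the change varied with the line for some genes. H1FX had changes of -0.98, -1.87 and -1.54 in A704, HK2 and CAKI-1, and FAM174A of -0.58, -1.39 and -1.08. C9orf16, whose function is little known, had changes of -1.20, -0.36 and -0.56, and PLAUR of -0.73, -0.50 and -1.22. No line was the highest or lowest throughout these genes, and with 1 library of each reagent in a line none of these differences could be tested. PTPN14 itself changed by -1.31, -1.37 and -1.52. Over all tested genes the changes had standard deviations of 0.19, 0.21 and 0.22 in A704, HK2 and CAKI-1. Across genes, which are not independent replicates, the Pearson correlation of the changes was 0.37 between A704 and HK2, 0.39 between A704 and CAKI-1 and 0.48 between HK2 and CAKI-1.

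Of 28 YAP and TAZ target genes tested, 1 rose and 1 fell, the fall being the silenced PTPN14, beside 0.448% higher and 0.904% lower over all genes. There were 16 estimates above 0, 12 below, with a median of 0.03 beside -0.00 over all genes. The rise was CRIM1, a transmembrane regulator of BMP and VEGF that mouse glomeruli need, with 148, 66.9 and 89.7 FPKM with PTPN14-2, against 113, 47.1 and 59.0 FPKM with control (0.49 ± 0.10, limma adjusted p = 0.0259). CRIM1 was higher in each line, and its call ended without any of the 3 PTPN14-2 libraries or the HK2 or CAKI-1 control (highest adjusted p 0.161), and also with quantile normalisation (adjusted p = 0.0595). CYR61 and CTGF are named here for being the readouts most used for YAP, and were chosen after their values were seen. CYR61 had 120.3, 554 and 74.4 FPKM with PTPN14-2, against 107, 520.2 and 63.0 FPKM with control (0.17 ± 0.12, adjusted p = 0.553). CTGF had 4.02, 19.7 and 17.6 FPKM with PTPN14-2, against 4.28, 16.4 and 18.7 FPKM with control (0.03 ± 0.10, adjusted p = 0.923). CYR61 was thus slightly higher in each line and CTGF higher in HK2 alone, and neither passed the test. THBS1 (-0.62 ± 0.17, adjusted p = 0.106) and MYOF (0.23 ± 0.07, adjusted p = 0.135) had the next smallest p-values. The 2 PTPN14 siRNAs differed on this list. With PTPN14-2 against PTPN14-1 its median was -0.25, with 1 of the 28 genes higher, PTPN14 itself, and 10 lower. Over all genes 6.18% were higher and 5.52% lower in that comparison. Some other lists had medians at least as far from 0 in it, so the difference was not particular to this list. Medians were -0.39 for immediate early genes, -0.32 for interferon response and 0.26 for genes of cilia and axonemes.

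Among 35 Hippo pathway components the median was 0.07, 0 rose, and MOB1B fell beside PTPN14. Over all genes 0.448% were called higher and 0.904% lower. MOB1B, an adaptor that activates LATS kinases, had 6.61, 5.47 and 4.04 FPKM with PTPN14-2, against 8.72, 10.4 and 6.38 FPKM with control (-0.57 ± 0.12, limma adjusted p = 0.0359). It was lower in each line, and its call ended without the CAKI-1 or HK2 PTPN14-2 library, without any control, or without the A704 or HK2 LATS library (highest adjusted p 0.156). WWC1, which encodes KIBRA, a binding partner of PTPN14, had 45.4, 12.8 and 23.7 FPKM with PTPN14-2 and 36.2, 10.6 and 15.7 FPKM with control, a difference of 0.37 ± 0.09 at an adjusted p of 0.0692. Of 26 protein tyrosine phosphatases tested, PTPN13, a FERM-domain phosphatase like PTPN14, rose by 0.41 ± 0.08 (adjusted p = 0.0312), and PTPN14 was the 1 that fell. The median of that list was 0.04. The PTPN13 call ended without any 1 of the 6 PTPN14-2 and control libraries (highest adjusted p 0.202).

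**Figure D4:**
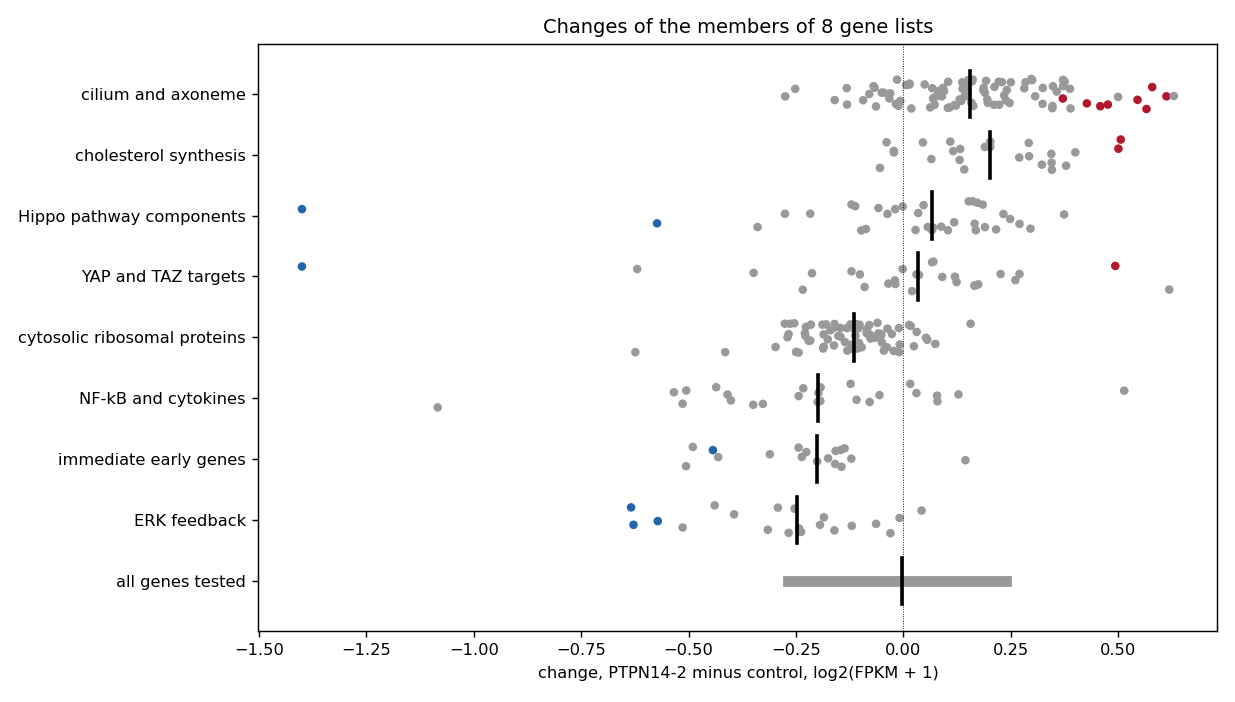
Change of each tested member of 8 gene lists with PTPN14-2 against control (log2(FPKM + 1)); red points were called higher, blue points lower, grey points neither, black ticks are medians, and the grey bar runs from the 5th to the 95th percentile of all genes tested. Medians run from -0.25 for ERK feedback to 0.20 for cholesterol synthesis, and the bar from -0.27 to 0.24.

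Genes of cholesterol synthesis lay mostly above 0. SREBP-2 drives these genes when sterols in the endoplasmic reticulum are low, and INSIG1 holds it there when they are not. Of 25 tested, 2 rose, INSIG1 and SC5D, 0 fell, 21 estimates were above 0 and 4 below, and 12 were higher and 0 lower at an unadjusted p under 0.05. Over all 12276 genes 0.448% were called higher, 49.2% of estimates were above 0, and 871 were higher at an unadjusted p under 0.05. The median of the list was 0.20. With PTPN14-2 against PTPN14-1 its median was -0.01, with 0 of the 25 genes called higher and 1 lower. Over all genes 6.18% were higher and 5.52% lower in that comparison. INSIG1 had 40.9, 161 and 116 FPKM with PTPN14-2, against 34.5, 119.9 and 64.1 FPKM with control (0.50 ± 0.10, limma adjusted p = 0.0331). SC5D, a sterol desaturase late in the pathway, had 29.3, 17.3 and 54.7 FPKM with PTPN14-2, against 21.1, 12.6 and 35.0 FPKM with control (0.51 ± 0.11, adjusted p = 0.0428). Both were higher with PTPN14-2 in each line. Without either HK2 library, either CAKI-1 library, the A704 control, or the A704 or HK2 LATS library, both calls ended, that of SC5D also without the A704 PTPN14-2 library (highest adjusted p 0.191 for INSIG1 and 0.21 for SC5D). The SC5D call also ended with quantile normalisation (adjusted p = 0.0529). HMGCS1, which makes HMG-CoA, had 43.7, 83.3 and 64.5 FPKM with PTPN14-2 and 33.0, 67.6 and 45.1 FPKM with control (0.40 ± 0.10, adjusted p = 0.0867), and the isomerase IDI1 differed by 0.35 ± 0.08 (adjusted p = 0.0655). In fatty acid synthesis the 2 routes to cytosolic acetyl-CoA went opposite ways. ACSS2, which makes it from acetate, rose by 0.47 ± 0.09 (adjusted p = 0.0249, ended without either A704 library, either HK2 library or the CAKI-1 control, highest adjusted p 0.127), while ACLY, described above, fell. The other 14 of 16 tested members were not called, and the list's median was 0.10.

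Promoters of these sterol genes are shown because their shared CCAAT box, which binds the factor NF-Y, is a known partner element of SREBP sites. Each stretch is the 250 bases before the gene's RefSeq start (GRCh38.p14), 5′ to 3′ on the gene's strand, with CCAAT, read on either strand, in capitals. The box stood in 15 of the 18 tested cholesterol genes with a promoter in the table (83.3%), against 33.0% of all 27305 promoters of the same length. Among called genes with a promoter, it stood in 19 of 42 called higher (45.2%) and 26 of 82 called lower (31.7%). The share over the tested genes alone was not counted. A sterol element itself, searched as TCACNCCAC on both strands, stood in 1 of the 18 (5.56%) and in 0.875% of all promoters. A match describes letters only.
INSIG1 (chr7:155297628-155297877, plus strand): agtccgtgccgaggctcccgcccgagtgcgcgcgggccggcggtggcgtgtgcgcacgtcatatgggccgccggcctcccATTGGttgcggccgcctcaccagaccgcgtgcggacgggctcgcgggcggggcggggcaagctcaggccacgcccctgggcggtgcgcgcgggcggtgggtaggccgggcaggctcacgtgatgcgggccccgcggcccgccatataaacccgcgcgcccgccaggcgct
SC5D (chr11:121292521-121292770, plus strand): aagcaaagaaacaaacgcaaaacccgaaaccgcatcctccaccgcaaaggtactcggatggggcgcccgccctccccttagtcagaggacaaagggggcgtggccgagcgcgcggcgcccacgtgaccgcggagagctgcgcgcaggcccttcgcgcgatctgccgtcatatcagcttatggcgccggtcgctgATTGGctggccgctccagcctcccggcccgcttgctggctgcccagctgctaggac
HMGCS1 (chr5:43313413-43313662, minus strand): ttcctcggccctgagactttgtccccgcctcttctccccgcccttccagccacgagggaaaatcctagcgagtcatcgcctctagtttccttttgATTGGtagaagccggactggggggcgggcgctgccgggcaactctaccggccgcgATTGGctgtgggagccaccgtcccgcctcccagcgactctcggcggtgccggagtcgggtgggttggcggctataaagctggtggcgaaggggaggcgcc

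Genes of the ERK feedback list and immediate early genes lay mostly below 0. The ERK feedback list holds genes tied to ERK signalling, phosphatases and inhibitors that damp it among them. Not every member damps ERK. Of 20 tested, 3 fell, SPRED3, IER3 and PHLDA1, 0 rose, and 19 estimates were below 0, with a median of -0.25, beside 0.904% called lower over all genes. IER3, an ERK substrate tied to cell survival, had 25.5, 78.0 and 17.5 FPKM with PTPN14-2, against 42.7, 98.5 and 32.2 FPKM with control (-0.63 ± 0.11, limma adjusted p = 0.0152). SPRED3, an inhibitor of RAS to RAF signalling, changed by -0.57 ± 0.10 (adjusted p = 0.0152) and PHLDA1 by -0.63 ± 0.14 (adjusted p = 0.0426). The SPRED3 and IER3 calls ended without the A704 or CAKI-1 PTPN14-2 library or the CAKI-1 control (highest adjusted p 0.109 each), and that of PHLDA1 without any of 8 libraries, every PTPN14-2 library among them (0.226), and with median centring (0.0519). IER3-AS1 covers 26.5% of IER3 on the opposite strand. SPRY4 had a difference of -0.39 ± 0.09 (adjusted p = 0.0655). Of 17 immediate early genes JUN, a subunit of AP-1, was the 1 called, with 7.47, 24.0 and 10.2 FPKM with PTPN14-2, against 12.2, 32.3 and 12.5 FPKM with control (-0.44 ± 0.09, adjusted p = 0.0261, ended without any 1 of the 6 PTPN14-2 and control libraries, highest adjusted p 0.133). Of that list 16 estimates were below 0 and 1 above, with a median of -0.20, and EGR1 differed by -0.51 ± 0.13 at an adjusted p of 0.0799. In the ETS family of 16 tested, ETS2 fell beside ETS1, by 0.44 on the log2 scale (-0.44 ± 0.09, adjusted p = 0.0257), 0 rose, and the median was -0.11. The ETS2 call ended without either A704 library, either CAKI-1 library or the HK2 control (highest adjusted p 0.166). PPP1R15A, which dephosphorylates eIF2-alpha after stress, was the 1 called gene of 30 of the unfolded protein and integrated stress list (-0.57 ± 0.09, median -0.10). Its call ended without the A704 or CAKI-1 PTPN14-2 library or the CAKI-1 control (highest adjusted p 0.087).

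Genes of cilia and axonemes, a list assembled after the called rises had been seen, were mostly above 0. Of 92 tested, 8 rose, LMLN among them, beside 0.448% over all genes, 0 fell, 74 estimates were above 0 and 18 below, and the median was 0.15. Since the list was drawn up from these values, the counts are a description. LMLN, which encodes the metalloprotease invadolysin, known from flies for roles in mitosis and cell migration and not as a part of cilia, had 5.03, 5.65 and 6.60 FPKM with PTPN14-2, against 3.25, 3.49 and 3.47 FPKM with control (0.61 ± 0.09, limma adjusted p = 0.00453), with no overlap between the reagents. DPCD, a gene tied to primary ciliary dyskinesia in mice, had 49.4, 20.3 and 34.3 FPKM with PTPN14-2, against 35.9, 13.97 and 19.5 FPKM with control (0.58 ± 0.08, adjusted p = 0.00453). Among fits that left out 1 library, the DPCD call ended only without the CAKI-1 control (adjusted p 0.0575). Over all 26 alternative settings it ended in 4. IQCG, a subunit of the nexin-dynein regulatory complex of motile cilia, had 4.40, 3.20 and 5.85 FPKM with PTPN14-2, against 2.77, 2.63 and 3.67 FPKM with control (0.43 ± 0.09, adjusted p = 0.0359). DYX1C1, a dynein assembly factor (0.57 ± 0.12), MORN2 (0.55 ± 0.11), CCDC96 (0.48 ± 0.10), C6orf165 (0.46 ± 0.09) and IFT22, of intraflagellar transport (0.37 ± 0.08), were the others. The calls of these 6 genes ended without either CAKI-1 library and without the HK2 control, among others, with highest adjusted p values from 0.142 for CCDC96 to 0.24 for DYX1C1. DYX1C1 shares 40.4%, C6orf165 55.7% and MORN2 36.9% of its exonic bases with a same-strand gene, so their counts are uncertain.

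By GENCODE positions LMLN and IQCG start 58 bases apart and run in opposite directions on chromosome 3. They were the 1 pair among the called genes whose GENCODE starts lay within 1000 bases of each other. The stretch that lies before the RefSeq starts of both is shown for that reason, on the LMLN strand with CCAAT or its reverse in capitals. The annotations differ here: the GENCODE starts, 197960142 for IQCG and 197960200 for LMLN, lie inside this stretch. Likewise the DPCD stretch, set by its RefSeq start, lies inside the GENCODE gene, which begins at 101570560. The DPCD stretch is shown for its match to a part of the X-box, GTTGCCNNG on either strand, the element read by the RFX factors of cilium genes, in capitals. That motif stood in 15 of 74 tested cilium genes with a promoter in the table (20.3%) and in 4.26% of all promoters. Among the 8 cilium genes that rose, 6 had a promoter in the table, and the motif stood in 1 of them, DPCD (16.7%). As the list was drawn up after the rises were seen, these shares only describe it. Motifs were searched separately, and their matches may overlap.
LMLN and IQCG (chr3:197959992-197960216, plus strand): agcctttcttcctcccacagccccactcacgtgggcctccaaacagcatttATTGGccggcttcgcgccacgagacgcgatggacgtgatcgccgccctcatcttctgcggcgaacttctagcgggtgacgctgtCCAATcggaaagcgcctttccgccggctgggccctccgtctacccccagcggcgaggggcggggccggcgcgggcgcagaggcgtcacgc
DPCD (chr10:101588071-101588320, plus strand): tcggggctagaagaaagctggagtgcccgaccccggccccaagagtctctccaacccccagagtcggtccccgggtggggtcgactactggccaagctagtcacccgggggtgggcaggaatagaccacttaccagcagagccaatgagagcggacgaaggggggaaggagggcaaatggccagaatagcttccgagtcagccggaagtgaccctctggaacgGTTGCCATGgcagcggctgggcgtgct

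In the remaining lists, whose calls stand beside 1.35% called over all genes, SLC2A3 and SLC29A1, a nucleoside transporter (-0.38 ± 0.07, adjusted p = 0.0257), were the 2 falls of 14 glucose and nucleoside transporters, with a median of -0.11. SLC2A3 and NDRG1, a hypoxia-induced gene (-0.64 ± 0.14, adjusted p = 0.0464), were the 2 falls of 36 genes of hypoxia and glycolysis (median 0.02). HPRT1 was the 1 call of 35 genes of nucleotide synthesis, SLCO4A1 of 16 organic ion transporters, the developmental factor HOXA10 (-0.38 ± 0.08) of 13 kidney lineage factors, SDHD (-0.51 ± 0.11) of 49 nuclear respiratory chain genes, the autophagy gene GABARAPL1 (0.57 ± 0.12) of 36 lysosome genes, and the receptor tyrosine kinase EPHA4 (0.48 ± 0.09) of 15 Eph receptors and ephrins. Among 48 deubiquitinases YOD1 rose (0.53 ± 0.09) and USP12 fell (-0.47 ± 0.09), and among 22 proteases and inhibitors PRSS23 and ADAM9 (0.43 ± 0.09) rose and PLAUR fell. Of these genes, SLC2A3 and HPRT1 kept their calls whichever library was left out, and the calls of the others ended without the HK2 control, the CAKI-1 control or the CAKI-1 PTPN14-2 library, with highest adjusted p values from 0.0935 for PLAUR to 0.249 for NDRG1. The SDHD call also ended with median centring (adjusted p = 0.057). Another 26 lists, with 628 tested members in all, had 0 calls, DNA replication, mitosis, p53 targets, interferon response and EMT regulators among them. Medians in the 21 of them with at least 10 tested genes ran from -0.20 for NF-kB and cytokines to 0.08 for cadherins, catenins and polarity. In the 72 cytosolic ribosomal protein genes 64 estimates were below 0, with a median of -0.12 and 18 lower at an unadjusted p under 0.05, and RPL18 had the smallest p (-0.41 ± 0.10, adjusted p = 0.0568).

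Among the called genes the largest differences in mean FPKM were those of PTMA and NDRG1 among the falls and of ADAM9 among the rises. PTMA, a small acidic nuclear protein, averaged 362 ± 108 FPKM with PTPN14-2 and 464 ± 136 FPKM with control (SD, n = 3 each), a change of -0.35 ± 0.07 (limma adjusted p = 0.0331), and it has 7 annotated pseudogenes. NDRG1 had 478, 12.7 and 10.8 FPKM with PTPN14-2, against 638, 22.5 and 18.8 FPKM with control, so the A704 libraries held nearly all of its level. ADAM9, a membrane sheddase, had 277, 4.22 and 146 FPKM with PTPN14-2, against 174, 3.60 and 107 FPKM with control, with HK2 low under both reagents. The PTMA, NDRG1 and ADAM9 calls each ended without the A704 control, the HK2 control or either CAKI-1 library of these reagents, among others, with highest adjusted p values of 0.138, 0.249 and 0.203. With quantile normalisation they ended too, at adjusted p values of 0.0638, 0.0738 and 0.0615.

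PTPN14-2 was also set against the other 2 reagents. Against PTPN14-1, 1437 genes differed (11.7%), 6.18% higher and 5.52% lower with PTPN14-2, and against LATS 478 genes (3.89%), 1.51% higher and 2.39% lower. These comparisons use the same PTPN14-2 libraries as the one with control, so the values below are given side by side and are not independent of it. The count for PTPN14-2 against PTPN14-1 was 840, 832 and 744 when the PTPN14-2 library of A704, of HK2 or of CAKI-1 was left out, and 878 without the HK2 PTPN14-1 library. That for PTPN14-2 against LATS was 154, 211 and 84 without the same PTPN14-2 libraries, 161 and 79 without the A704 and CAKI-1 LATS library, 314, 311 and 262 when the control of A704, of HK2 or of CAKI-1 was left out, and 838 without the A704 PTPN14-1 library. PTPN14 stood at 4.09, 14.9 and 4.66 FPKM with PTPN14-1 in A704, HK2 and CAKI-1, lower in each line than with PTPN14-2, a difference of 0.44 ± 0.11 (PTPN14-2 minus PTPN14-1, limma adjusted p = 0.0213). ETS1 had 16.1, 19.1 and 10.3 FPKM with PTPN14-2 and 46.2, 80.4 and 38.5 FPKM with PTPN14-1, a difference of -1.76 ± 0.12 (adjusted p = 1.25e-05). Each of its PTPN14-1 values exceeded the control value of the line, and each PTPN14-2 value was below it. SLC2A3 differed by -1.17 ± 0.08 from PTPN14-1 and -1.11 ± 0.08 from LATS, HPRT1 by -1.11 ± 0.08 and -0.78 ± 0.08, and GOLT1B by -1.16 ± 0.09 and -0.71 ± 0.09, all with an adjusted p under 0.05. CD99 differed by -1.27 ± 0.12 from PTPN14-1 and -1.38 ± 0.12 from LATS, with 26.8, 37.4 and 42.9 FPKM under PTPN14-1 and 25.1, 37.99 and 57.7 FPKM under LATS.

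Among the rises, the reagents also differed. ITGB8 had 45.3, 13.0 and 27.1 FPKM with PTPN14-2 and 21.3, 6.42 and 14.1 FPKM with PTPN14-1, a difference of 0.96 ± 0.10 (limma adjusted p = 0.000143), and RBM47, an RNA-binding protein of epithelial cells, differed by 1.00 ± 0.09 (adjusted p = 3.39e-05). EPHA4 (0.89 ± 0.09) and COL8A1 (0.88 ± 0.10) also stood higher with PTPN14-2 than with PTPN14-1. TSPAN2 had 4.90, 2.27 and 11 FPKM with PTPN14-1 and 3.98, 1.74 and 7.41 FPKM with LATS, close to its PTPN14-2 values. Its differences were -0.29 ± 0.15 (adjusted p = 0.236) from PTPN14-1 and 0.05 ± 0.15 (adjusted p = 0.876) from LATS, which does not show that the reagents act alike. CRIM1 differed by -0.22 ± 0.10 (adjusted p = 0.168) from PTPN14-1 and PRSS23 by -0.20 ± 0.10 (adjusted p = 0.222). H1FX had 5.15, 6.37 and 9.66 FPKM with PTPN14-1 and 8.98, 12 and 17.5 FPKM with LATS, and was lower with PTPN14-2 than with either, by -0.96 ± 0.14 (adjusted p = 0.00146) and -1.73 ± 0.14 (adjusted p = 6.5e-05).

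**Figure D5:**
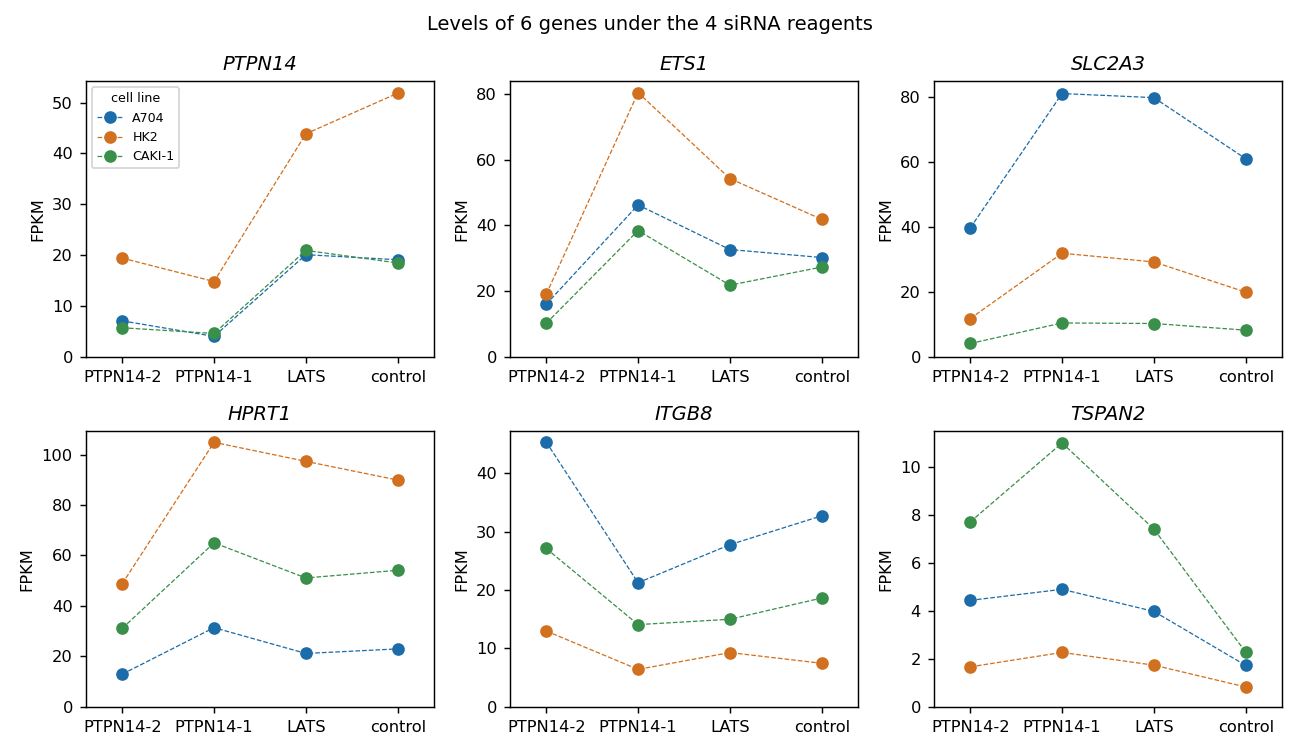
FPKM of 6 genes under PTPN14-2, PTPN14-1, LATS and control siRNA in the 3 cell lines (coloured points, joined by dashed lines for reading only; axes start at 0). ETS1, SLC2A3 and HPRT1 are lowest with PTPN14-2 in each line and ITGB8 highest, whereas PTPN14 is lowest with PTPN14-1 and TSPAN2 is lowest with control.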

How the data were processed

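The authors deposited 1 table of FPKM values (fragments scaled by gene length and library size) for 12 libraries. Per the submitters' processing notes, the aligner was STAR 2.4.0g1 and the build GRCh38.p1. Per the labels' protocols, the kit for the libraries keeps strand. The sources used here do not give the gene counter, its strand setting, the annotation or the scaling. Depth, 16.9 to 23.3 M reads, was estimated from whole-read steps in low values of single-exon genes, within a search range set by hand, and limits the precision of low genes.

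Genes above FPKM 1 in at least 3 of 12 libraries were kept, which left 12276. The values were tested as log2(FPKM + 1), a scale that understates changes of low genes, with limma 3.58.1 in R 4.3.3 (trend and robust moderation, statmod 1.5.0), reagent plus a cell line block, 6 residual degrees of freedom and Benjamini-Hochberg adjustment at 0.05. Pairing is by cell line: libraries of the same line deviated together (correlations 0.982, 0.983 and 0.977 in A704, HK2 and CAKI-1). On 10 simulated sets with 200 changed genes among 12276, the fit for PTPN14-2 against control recovered 22.4% of 1.25-fold, 76.1% of 1.5-fold and 95.9% of 2-fold changes, with 4.79% false calls. These sets had independent normal noise, no effect of the other reagents and the same change in each line. The real libraries need not be so, and 4.79% is not an estimate of the false calls among the genes called here.

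Named genes were PTPN14, YAP1, WWTR1, LATS1 and LATS2, the 25 largest rises and 30 largest falls that were called with the same sign in 3 lines, the 10 largest called FPKM differences, up to 4 members of each list by p, the 10 called genes of smallest p against each other PTPN14 or LATS reagent, and the 5 called genes that vary most between lines. Members and lists were chosen with earlier results of these data known. Gene positions and overlaps are from GENCODE v29, and promoters from RefSeq on GRCh38.p14. Entries with dates in place of symbols (29 of 20979) were not named, and a few genes of the lists are not reported here. Alternatives changed the pseudocount, filter, scaling, moderation, block and libraries.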

Additional observations from a re-analysis of the deposited data

Results flagged for a closer look

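Of 1334 list members compared, 7 moved by more than 0.4 on the log2(FPKM + 1) scale upwards with PTPN14-2 in 1 line and downwards in another, and none of the 7 was called. Each line has 1 library per reagent, so these differences between lines were not tested, and the same count was not made over all genes. AREG, an EGFR ligand, changed by -1.16, 0.41 and -0.78 with A704, HK2 and CAKI-1 cells, an order kept below, a range of 1.57. The chemokine CCL20 changed by -0.79, 0.94 and -0.73, a range of 1.73. PLAT, tissue plasminogen activator, changed by -0.52, 0.47 and -0.23, a range of 0.99. The protease MMP7 changed by -0.88, 0.64 and 0.23, a range of 1.52. In these 4 genes the change was highest in HK2 and lowest in A704. ITGA5 changed by 0.24, 0.47 and -0.45, a range of 0.92, SLC7A5 by 0.43, -0.49 and 0.28, a range of 0.92, and HIST1H2BJ by -0.42, 0.15 and 0.58, a range of 0.99. Some of these levels were low. In A704, CCL20, MMP7 and PLAT had 0.31, 0.38 and 0.66 FPKM with PTPN14-2, against 1.27, 1.54 and 1.38 FPKM with control. HIST1H2BJ had 0.35 FPKM with PTPN14-2 and 0.22 FPKM with control in HK2. Changes at such levels are imprecise.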

How the results depend on the processing

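The 82 called genes that were followed, most of them named above, kept their direction under every setting that gave a value. However, all 82 calls ended without the replicate block by cell line, 67 without CAKI-1, 60 without HK2 and 32 without A704. Another 50 of the 82 ended with no filter on low values, 16 without the LATS libraries, 5 with quantile normalisation and 4 with median centring, and the same gene can count under several settings. Among named genes that were not called, 7 turned round, none of them past the threshold. Over the fits that left out a library or a line, CTGF ran from -0.11 to 0.14 (-0.11 without the HK2 PTPN14-2 library, -0.08 without HK2), CCL20 from -0.76 to 0.12, PLAT from -0.37 to 0.13, MMP7 from -0.33 to 0.43, ITGA5 from -0.10 to 0.36, SLC7A5 from -0.10 to 0.35 and HIST1H2BJ from -0.14 to 0.36. MMP7, at -0.00, was at 0.037 with quantile normalisation and 0.012 with median centring. Against 166 calls for PTPN14-2 against control, fits without the replicate block by cell line called 0, with 31 genes at an unadjusted p under 0.05, and 0 also against PTPN14-1 and against LATS, with 119 and 49. With no filter on low values 60 were called (108 against LATS), and with the 6 PTPN14-2 and control libraries alone 526. Leaving out 1 library or line gave 16 to 254 calls against control (16 without CAKI-1, 24 without HK2, 94 without A704), 428 to 1643 for PTPN14-2 against PTPN14-1 and 46 to 838 for PTPN14-2 against LATS. Dropping all PTPN14-1 libraries gave 243 calls and dropping all LATS libraries 135. Quantile normalisation called 55 higher and 112 lower, and median centring 66 and 98. Other settings of pseudocount, filter and moderation gave 148 to 190 calls. Depth limits what can be seen in genes near FPKM 1.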
